A study of Mus musculus with 11 samples.

Results

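Microglia of ikbkbCA;P301S+ mice, which carry a constitutively active form of IKKβ together with mutant human tau, were compared with microglia of ikbkb+/+ mice that have neither. The comparison holds 2681 microglial nuclei from the cortex of 6 mice, 1420 from 2 ikbkbCA;P301S+ mice (called active IKKβ mice here) and 1261 from 4 non-transgenic mice. They are part of 5049 microglial nuclei found by the same rule among 112539 nuclei of 11 libraries in the whole study. A nucleus was counted as microglial where at least 3 of the 8 genes Inpp5d, Csf1r, Ly86, Siglech, Selplg, Ikzf1, Runx1 and Dock8 were detected and the neuronal gene Slc17a7 had at most 1 UMI (unique molecular identifier, a tag that marks 1 captured RNA molecule), after limits of 300 to 8000 genes and 5% mitochondrial UMIs.

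By the labels and the study's methods the active IKKβ mice differ from the controls in several things at once. They carry the P301S tau transgene of the PS19 line, which a prion promoter drives in neurons. They carry 1 Cx3cr1 allele replaced by the tamoxifen-dependent recombinase CreERT2, which acts in microglia and other cells that express Cx3cr1. Cre in turn switches on an active kinase held behind a floxed stop at the Rosa26 locus, while the endogenous Ikbkb gene stays in place. The parts played by tau, Cre and the kinase therefore cannot be told apart in these 6 mice. The controls are of 2 kinds. Non-transgenic mice 1 and 2 are titled IKKbCtrl and mice 3 and 4 IKKbWT. The labels do not spell these titles out. From the study's methods they are read here as mice of the line with floxed Ikbkb and of the active kinase line, and the latter would carry the same floxed-stop kinase allele as the active IKKβ mice, not switched on. Every comparison by kind of control rests on that reading. By the study's methods both kinds lack Cre and all mice were given tamoxifen. The IKKbCtrl mice were 10.03 months old. IKKbWT mice 1 and 2 were 10.85 and 9.8 months old, as were active IKKβ mice 1 and 2. The labels give the mice as female, whereas the study's methods name males for RNA-seq, so their sex is not settled here. The fit also holds 2 ikbkb-/-;P301S+ mice, which were 8.39 and 9.15 months old, and 3 ikbkb+/+;P301S+ mice (called P301S mice here). The P301S mice carry the tau transgene, lack Cre by the study's methods and were 9.15, 10.03 and 10.75 months old. P301S mouse 1 and both ikbkb-/-;P301S+ mice were younger than each of the 6 mice compared. Each library is 1 mouse, so the mouse is the replicate throughout.

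IKKβ is the kinase that marks the inhibitor IκBα for destruction and so frees NF-κB transcription factors to enter the nucleus. NF-κB then induces its own inhibitors, adaptors and subunits along with cytokines, adhesion molecules and survival genes, and this feedback normally limits the response. In microglia, the resident macrophages of the brain, the pathway is best known for turning on inflammatory genes, while a set of homeostatic genes marks the resting surveilling state.

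Sums over the microglial nuclei of each mouse held 597089 to 1319168 UMIs in the non-transgenic mice and 2304502 and 2244504 in the active IKKβ mice. The median nucleus held 1723, 1969, 1809 and 2254 UMIs in non-transgenic mice 1 to 4 and 2400 and 2567 in active IKKβ mice 1 and 2. Nuclear RNA of all types had been sorted by a DNA stain only, and no doublet caller was run here. Between 15 and 45 barcodes were shared by any pair of the 11 libraries, and at most 1 of them was microglial in both. Microglial genes outside the rule were present in all 6 mice, among them P2ry12 at 901, 853, 535 and 546 CPM in non-transgenic mice 1 to 4 and 664 and 575 in active IKKβ mice 1 and 2 and C1qa at 246, 197, 177 and 109 CPM in non-transgenic mice 1 to 4 and 284 and 181 in active IKKβ mice 1 and 2. The targeted locus was checked as far as the counts allow. Ikbkb stood at 133 and 105 CPM in the IKKbCtrl mice, 123 and 107 in the IKKbWT mice, and 135 and 126 in the active IKKβ mice (log2 change 0.18 ± 0.14, edgeR adjusted p = 0.73). The active kinase is a cDNA at Rosa26, whose 3′ end need not be counted as Ikbkb, so this level checks nothing. Cx3cr1, of which the active IKKβ mice have 1 copy, stood at 742 and 477 CPM in the IKKbCtrl mice, 692 and 557 in the IKKbWT mice, and 502 and 381 in the active IKKβ mice (log2 change -0.48 ± 0.18, edgeR adjusted p = 0.269). Gt(ROSA)26Sor, the transcript of the Rosa26 locus itself, gave 5.27 and 4.19 CPM in Slc17a7-positive neuronal nuclei of the IKKbCtrl mice, 0.224 and 0.170 in the IKKbWT mice and 0.356 and 0.356 in the active IKKβ mice. Mice of the active kinase line were thus low at that locus, as their titles imply.

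Microglia were a larger share of nuclei in both active IKKβ mice than in any non-transgenic control. A share as high was also found without active kinase, at 7.59% in P301S mouse 3 and 6.13% in 1 ikbkb-/-;P301S+ mouse. P301S mice 1 and 2 had 2.66 and 3.15% and the other ikbkb-/-;P301S+ mouse 2.96%. The rule kept 253, 317, 289 and 402 nuclei in non-transgenic mice 1 to 4, which were 2.68, 3.13, 3.12 and 4.17% of the nuclei that passed the limits. It kept 754 and 666 nuclei in the active IKKβ mice, or 6.99 and 5.95%. The means were 6.47 ± 0.740% (SD, n = 2) and 3.28 ± 0.632% (SD, n = 4), a ratio of 1.97, with an exact two-sided permutation p = 0.133, the smallest that 15 splits of 6 mice allow. Against the IKKbWT mice alone, whose mean was 3.65%, the ratio was 1.77. The same nuclei were also deeper, with median UMIs 1.28 times those of the controls (exact permutation p = 0.133). The part of depth in the share was not tested directly. With at least 4 markers required the difference in share was 3.13 percentage points, against 3.19 with 3 markers. With these mice the exact permutation test cannot reach a p under 0.05, and shares of sorted nuclei do not give cell numbers in tissue.

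Gene expression differed between the groups in a small set of genes, mostly upward. Values are UMIs of a gene relative to all summed microglial UMIs of that mouse, in the usual CPM unit, scaled by TMM size factors, and a log2 fold change (log2 change in brackets) is given with its standard error (SE) after the sign ±. A gene was called where the Benjamini-Hochberg adjusted p of edgeR's quasi-likelihood test was under 0.05 and the log2 fold change exceeded 0.1 in size, in a fit over all 11 mice and 4 genotypes. Of 10714 genes tested 182 were called (1.7%), 140 higher (1.31%) and 42 lower (0.392%) in active IKKβ mice, and 1177 had an unadjusted p under 0.05. The median log2 fold change over all tested genes was -0.02. In each of the 182 called genes both active IKKβ mice lay beyond all 4 controls. Such separation by itself was common, since both active IKKβ mice lay above all controls in 1022 of the tested genes (9.54%) and below all of them in 846 (7.9%). In Slc17a7-positive neuronal nuclei of the same mice 7 of 17352 genes were called (0.0403%), and 1 of the 161 microglial calls that could be tested there was among them.

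**Figure D1:**
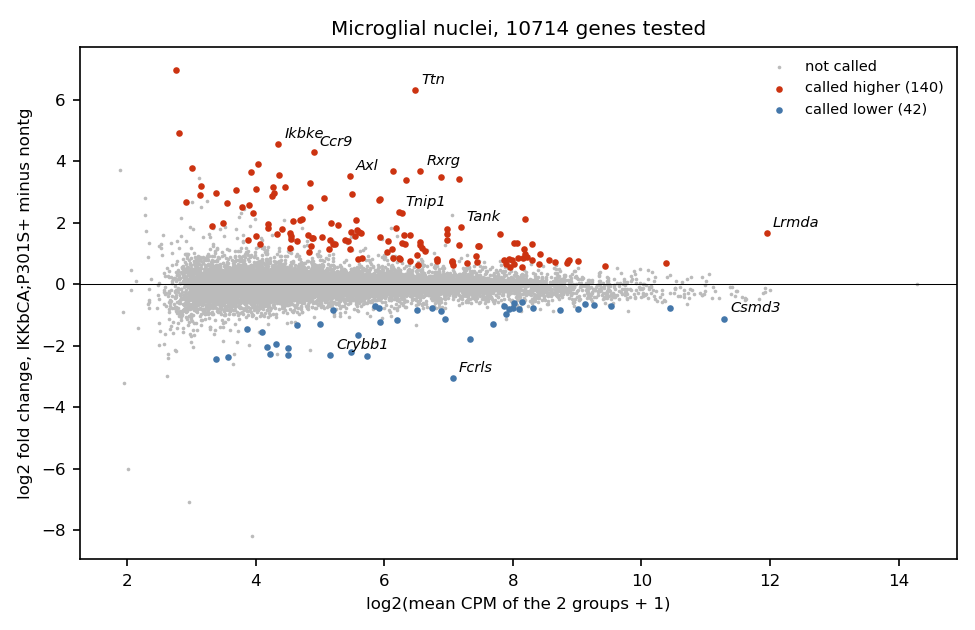
Log2 fold change of active IKKβ (IKKbCA;P301S+) against non-transgenic (nontg) microglia for each of 10714 genes, plotted against the log2 of the mean CPM of the 2 groups plus 1. Grey points were not called, red points are the 140 genes called higher and blue points the 42 called lower. Called genes are mostly red, and Ttn at 6.33 and Fcrls at -3.05 are among the farthest from 0.

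Genes of the NF-κB pathway itself were often among the calls. A list of 40 subunits, kinases, adaptors and inhibitors had 35 members that could be tested. Of these, 9 were called higher (25.7%) and 0 lower, against 1.31% of all genes called higher. This and the other gene lists below were chosen with earlier results of these data known. Their shares of calls therefore describe the lists and test nothing. The median of the 35 was 0.30, and 27 of them had a positive log2 fold change. Both active IKKβ mice lay above all controls in 18 of the 35, against 9.54% of all genes. The summed level of the list was 2257 to 2451 CPM in the controls and 3586 and 3420 CPM in the active IKKβ mice.

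Among the adaptors that link receptors to the kinases, Tank (ENSMUSG00000064289, chr2:61578585-61654171, plus strand), a binding partner of TRAF proteins and TBK1, had 57.2 and 70.0 CPM in the IKKbCtrl mice, 63.7 and 58.3 in the IKKbWT mice, and 245 and 209 in the active IKKβ mice. All controls lay within a narrow band and both active IKKβ mice were about 3 times its upper end or more (log2 change 1.86 ± 0.15, edgeR adjusted p = 6.39e-06). Traf3, an adaptor that restrains the alternative NF-κB pathway by holding down NIK, had 211 and 150.2 CPM in the IKKbCtrl mice, 156 and 199.9 in the IKKbWT mice, and 445 and 445 in the active IKKβ mice (log2 change 1.31 ± 0.18, edgeR adjusted p = 0.000655). Traf2, its partner in that complex, had 17.3 and 12.4 CPM in the IKKbCtrl mice, 17.5 and 13.2 in the IKKbWT mice, and 42.9 and 40.5 in the active IKKβ mice (log2 change 1.5 ± 0.25, edgeR adjusted p = 0.00393). Birc3, the ubiquitin ligase cIAP2 of the same complex and a textbook NF-κB target, had 53.7 and 38.4 CPM in the IKKbCtrl mice, 33.4 and 40.4 in the IKKbWT mice, and 134 and 117 in the active IKKβ mice (log2 change 1.61 ± 0.21, edgeR adjusted p = 0.00047). The controls of neither kind overlapped the active IKKβ mice in any of these 4 genes, as in all 182 called genes.

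Inhibitors rose as well. Tnip1 (ENSMUSG00000020400), which encodes ABIN-1, a brake on NF-κB that works with the ubiquitin editor A20, had 24.3 and 16.9 CPM in the IKKbCtrl mice, 30.2 and 26.4 in the IKKbWT mice, and 119.9 and 128 in the active IKKβ mice. The lower of the active IKKβ mice was about 4 times the highest control (log2 change 2.35 ± 0.24, edgeR adjusted p = 4.97e-05). Nfkbia, which encodes IκBα, the inhibitor that IKKβ itself targets, had 5.2 and 2.26 CPM in the IKKbCtrl mice, 20.7 and 8.55 in the IKKbWT mice, and 31.2 and 42.2 in the active IKKβ mice (log2 change 2.07 ± 0.48, edgeR adjusted p = 0.0367). Its controls were uneven, with IKKbWT mouse 1 at 20.7 CPM, and the difference from the IKKbWT mice alone was 1.48 and did not pass (edgeR adjusted p = 0.244). Bcl3, an atypical IκB protein that acts in the nucleus, was near absent in controls, with 1.73 and 3.39 CPM in the IKKbCtrl mice, 0 and 1.56 in the IKKbWT mice, and 13 and 15 in the active IKKβ mice (log2 change 2.92 ± 0.53, edgeR adjusted p = 0.00716). The log2 changes of Nfkbia and Bcl3 had larger standard errors than that of Tnip1.

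Of the subunits, Relb, the partner of p52 in the alternative pathway, had 38.1 and 16.9 CPM in the IKKbCtrl mice, 14.3 and 31.9 in the IKKbWT mice, and 113 and 144 in the active IKKβ mice (log2 change 2.32 ± 0.33, edgeR adjusted p = 0.000864). It was the subunit with a call. Nfkb1, which encodes p105 and p50, had 315 and 322 CPM in the IKKbCtrl mice, 357 and 289 in the IKKbWT mice, and 505 and 475 in the active IKKβ mice. Both active IKKβ mice were above every control, but the difference did not pass (log2 change 0.61 ± 0.17, edgeR adjusted p = 0.0792). It passed in 7 of 18 alternatives, the fit of the 6 libraries alone among them (0.61). Among the kinases Ikbke, an IKK-related kinase that NF-κB induces, had 1.73 and 3.39 CPM in the IKKbCtrl mice, 0 and 0.778 in the IKKbWT mice, and 21.2 and 53.2 in the active IKKβ mice. It was the most strongly raised member of the list, from 5 UMIs in all controls to 170 in the active IKKβ mice (log2 change 4.56 ± 0.77, edgeR adjusted p = 0.00448). The other 26 tested members were not called. Of the 9 called members, Tank, Tnip1, Birc3, Traf3 and Relb stayed called under all 18 alternative settings. The calls of Bcl3 and Ikbke were lost without active IKKβ mouse 2, at 2.81 and 3.75. That of Nfkbia was lost without any 1 of non-transgenic mice 1, 2 and 4 or of the active IKKβ mice, at 1.73 to 2.27, and with line as a covariate, at 1.71. That of Traf2 was lost when each nucleus was thinned to 1000 UMIs, at 1.19.

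**Figure D2:**
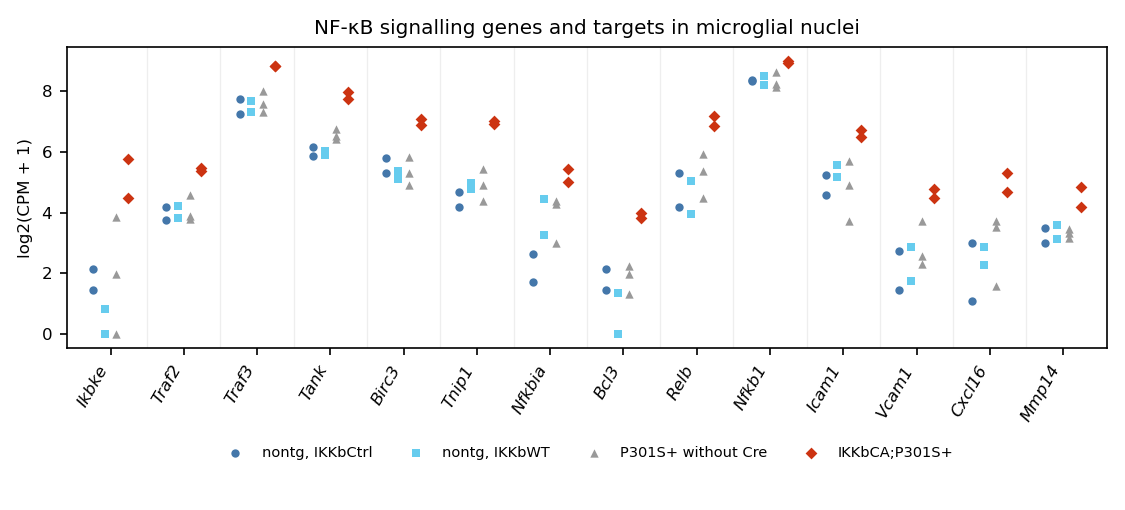
Level of NF-κB signalling genes and targets in microglial nuclei of each mouse, as log2(CPM + 1), with 1 point per mouse. Circles are IKKbCtrl and squares IKKbWT non-transgenic (nontg) mice, triangles are P301S mice without active kinase, which are shown for reference, and diamonds are active IKKβ mice. The diamonds lie above both kinds of control for every gene shown, with Nfkb1 not called. The genes were picked from the NF-κB lists and the others were all called. No called gene overlapped between the groups, so this pattern follows from the choice. Both active IKKβ mice lay above all controls in 18 of 35 tested subunit and feedback genes and 11 of 25 tested effectors, against 9.54% of all genes.

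Promoter sequence was read for the genes called higher, because NF-κB binds a short motif, the κB site. Windows of 300 bases, 250 before and 50 from each transcript start, were taken from RefSeq on the GRCm38.p6 build and searched on both strands for the NF-κB consensus, a pattern of 10 bases. At least 1 match was found for 26 of the 112 genes called higher that had a window (23.2%), for 2 of 31 called lower (6.45%), for 1054 of 8250 tested genes (12.8%) and for 2581 of all 27025 genes (9.55%). By window the share was 2779 of 32851 (8.46%). Of the NF-κB pathway genes called higher, 5 of the 8 with a window held a match (62.5%), namely Tank, Traf3, Tnip1, Nfkbia and Bcl3. Their windows are shown here, 5′ to 3′ on the gene's own strand. B2m, a called gene of antigen presentation, is added for comparison. Tank has 4 windows with a match, in overlapping pairs at the start of the gene and at a transcript start inside it. Of each pair 1 is shown. The other 5 genes have 1 window with a match each. Windows of these genes without a match were not counted. Capitals mark the matched bases, and a match is a letter pattern, not a measured binding site.

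Tank, inner start (chr2:61592847-61593146, plus strand): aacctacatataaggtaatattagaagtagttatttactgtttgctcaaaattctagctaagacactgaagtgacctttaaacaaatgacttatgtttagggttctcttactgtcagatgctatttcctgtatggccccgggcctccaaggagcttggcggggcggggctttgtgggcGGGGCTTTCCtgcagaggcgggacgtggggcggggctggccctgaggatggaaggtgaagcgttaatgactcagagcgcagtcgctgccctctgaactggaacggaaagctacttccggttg
Tank, start of the gene (chr2:61578336-61578635, plus strand): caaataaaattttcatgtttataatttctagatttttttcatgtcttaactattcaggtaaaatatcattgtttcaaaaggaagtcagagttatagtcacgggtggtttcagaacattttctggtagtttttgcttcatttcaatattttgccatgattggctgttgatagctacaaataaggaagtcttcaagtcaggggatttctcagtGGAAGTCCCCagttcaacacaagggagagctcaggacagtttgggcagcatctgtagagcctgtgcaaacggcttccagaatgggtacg
Traf3 (chr12:111166120-111166419, plus strand): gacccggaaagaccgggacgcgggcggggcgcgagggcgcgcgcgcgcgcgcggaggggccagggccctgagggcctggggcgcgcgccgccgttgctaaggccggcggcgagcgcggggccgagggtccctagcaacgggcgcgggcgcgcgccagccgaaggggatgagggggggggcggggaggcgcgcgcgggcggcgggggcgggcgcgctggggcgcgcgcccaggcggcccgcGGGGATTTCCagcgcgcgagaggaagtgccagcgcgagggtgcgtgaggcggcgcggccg
Tnip1 (chr11:54962891-54963190, minus strand): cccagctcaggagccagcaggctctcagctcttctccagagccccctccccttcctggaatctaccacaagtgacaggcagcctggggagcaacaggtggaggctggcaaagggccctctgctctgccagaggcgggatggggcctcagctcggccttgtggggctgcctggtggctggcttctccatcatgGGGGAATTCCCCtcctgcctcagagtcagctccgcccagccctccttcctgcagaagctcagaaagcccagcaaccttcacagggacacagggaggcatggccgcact
Nfkbia (chr12:55492598-55492897, minus strand): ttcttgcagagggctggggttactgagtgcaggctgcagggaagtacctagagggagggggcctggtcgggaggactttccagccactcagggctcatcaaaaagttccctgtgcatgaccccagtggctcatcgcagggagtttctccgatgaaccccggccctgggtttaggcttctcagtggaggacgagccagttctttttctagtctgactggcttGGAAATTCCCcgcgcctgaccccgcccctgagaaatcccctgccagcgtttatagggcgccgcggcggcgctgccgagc
Bcl3 (chr7:19822706-19823005, minus strand): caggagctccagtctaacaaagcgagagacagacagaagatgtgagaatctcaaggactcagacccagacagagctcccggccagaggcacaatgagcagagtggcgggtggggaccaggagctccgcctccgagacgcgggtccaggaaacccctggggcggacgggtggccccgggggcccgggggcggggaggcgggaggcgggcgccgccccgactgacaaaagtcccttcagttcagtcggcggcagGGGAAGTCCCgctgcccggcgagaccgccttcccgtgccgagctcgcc
B2m (chr2:122147437-122147736, plus strand): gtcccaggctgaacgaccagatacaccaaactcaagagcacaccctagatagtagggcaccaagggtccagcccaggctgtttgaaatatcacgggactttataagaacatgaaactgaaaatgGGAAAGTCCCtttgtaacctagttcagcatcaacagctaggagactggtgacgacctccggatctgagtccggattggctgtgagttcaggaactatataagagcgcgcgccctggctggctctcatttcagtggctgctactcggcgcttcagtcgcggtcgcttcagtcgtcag

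The first matched base of Tank lay 72 bases before the inner start and, for another match on the other strand, 39 before the start of the gene. In the matching windows not shown it lay 127 and 10 before their starts. It lay 10 bases before the start in Traf3, 29 before it in Nfkbia and 126 before it in B2m. In Bcl3 the match, which meets the pattern on both strands, began at base 3, with the start base counted as 1. In Tnip1 overlapping matches on both strands began 58 to 56 bases before it. The pattern was not general among the raised genes, since it was found in 1 of the 11 windowed genes among the 12 largest rises, H2-Q7, and in 0 of the 2 NF-κB effector genes with a window.

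Effector genes that NF-κB induces in immune cells were mostly too low to test, and 4 of those tested rose. The list held 60 cytokines, chemokines, adhesion and survival genes, of which 25 passed the filter on low counts. Of these, 4 were called higher (16%) and 0 lower, with a median of 0.42, against 1.31% of all genes called higher. Counts in 2 mice, the size of the smallest group, can be enough for the filter. A gene near 0 in the controls can thus enter through the mice in which it is high. The tested members of this and the other lists therefore lean to rises. Vcam1, an adhesion molecule for leukocytes, had 1.73 and 5.65 CPM in the IKKbCtrl mice, 6.37 and 2.33 in the IKKbWT mice, and 26.4 and 21.1 in the active IKKβ mice (log2 change 2.58 ± 0.46, edgeR adjusted p = 0.00679). Cxcl16, a membrane-bound chemokine, had 6.93 and 1.13 CPM in the IKKbCtrl mice, 6.37 and 3.89 in the IKKbWT mice, and 24.7 and 38.3 in the active IKKβ mice (log2 change 2.88 ± 0.57, edgeR adjusted p = 0.0134). Icam1, another adhesion molecule, had 36.4 and 22.6 CPM in the IKKbCtrl mice, 35 and 46.7 in the IKKbWT mice, and 88.8 and 103 in the active IKKβ mice (log2 change 1.42 ± 0.30, edgeR adjusted p = 0.0213). The metalloprotease gene Mmp14 had 6.93 and 10.2 CPM in the IKKbCtrl mice, 11.1 and 7.78 in the IKKbWT mice, and 17.3 and 27.7 in the active IKKβ mice (log2 change 1.32 ± 0.31, edgeR adjusted p = 0.0415). In all 4 the groups did not overlap, as in all 182 called genes. Against the IKKbWT mice alone Icam1 and Vcam1 passed, at 1.19 and 2.63 (edgeR adjusted p = 0.0421 and 0.0481), while Cxcl16 and Mmp14 did not, at 2.7 and 1.31 (edgeR adjusted p = 0.101 and 0.188). Some of these calls depended on single mice or on the design. That of Vcam1 was lost without active IKKβ mouse 1 (2.42), and that of Cxcl16 without non-transgenic mouse 2 (2.55), mouse 4 (2.82) or active IKKβ mouse 2 (2.53). That of Icam1 was lost without non-transgenic mouse 1 (1.43) or 2 (1.25) or either active IKKβ mouse (1.53 and 1.31), and that of Mmp14 without any control or active IKKβ mouse 2, at 0.95 to 1.42. Line as a covariate ended the calls of Icam1 (1.07), Cxcl16 (2.63) and Mmp14 (1.38), and DESeq2 (1.33), a fit of the 6 libraries alone (1.32) and a selection by at least 4 of the 8 markers (1.27) that of Mmp14. Cd86, a costimulatory molecule, had 243 and 224 CPM in the IKKbCtrl mice, 317 and 189 in the IKKbWT mice, and 350.3 and 319 in the active IKKβ mice and was not called (log2 change 0.47 ± 0.17, edgeR adjusted p = 0.232).

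Apart from Ikbke, the 12 largest rises under the naming rule were in genes outside the NF-κB lists. Ttn (ENSMUSG00000051747, chr2:76703980-76982547, minus strand) encodes titin, the giant spring protein of muscle, and stood at 3.47 and 3.39 CPM in the IKKbCtrl mice, 1.59 and 0.778 in the IKKbWT mice, and 119 and 231 in the active IKKβ mice. These were 7 UMIs in all 1261 control nuclei and 799 in the 1420 active IKKβ nuclei, a ratio of 87.3 with an exact interval of 42.2 to 218 for counting error alone (log2 change 6.33 ± 0.40, edgeR adjusted p = 4.00e-07). Rxrg (ENSMUSG00000015843, chr1:167598384-167639623, plus strand), a nuclear receptor that pairs with other receptors for lipids and retinoids, had 12.1 and 11.3 CPM in the IKKbCtrl mice, 17.5 and 13.2 in the IKKbWT mice, and 174 and 172 in the active IKKβ mice. The active IKKβ mice were nearly equal and the controls close together (log2 change 3.69 ± 0.25, edgeR adjusted p = 5.12e-07). Ddo, which encodes D-aspartate oxidase, had 5.2 and 4.52 CPM in the IKKbCtrl mice, 3.18 and 20.2 in the IKKbWT mice, and 121 and 138 in the active IKKβ mice (log2 change 3.69 ± 0.36, edgeR adjusted p = 2.94e-05).

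Ccr9, a chemokine receptor best known from T cells that home to the gut, had 1.73 and 1.13 CPM in the IKKbCtrl mice, 6.37 and 2.33 in the IKKbWT mice, and 40.3 and 69.5 in the active IKKβ mice (log2 change 4.31 ± 0.45, edgeR adjusted p = 4.97e-05). It overlaps the gene Gm17200 on the same strand, so that reads of the pair may not be told apart. St8sia6, a sialyltransferase that caps surface glycans, had 31.2 and 18.1 CPM in the IKKbCtrl mice, 22.3 and 10.9 in the IKKbWT mice, and 218 and 210.3 in the active IKKβ mice (log2 change 3.5 ± 0.48, edgeR adjusted p = 0.000817). Xdh, xanthine dehydrogenase, an enzyme of purine breakdown and a source of reactive oxygen, had 0 and 3.39 CPM in the IKKbCtrl mice, 4.78 and 0 in the IKKbWT mice, and 26.4 and 31.2 in the active IKKβ mice (log2 change 3.93 ± 0.56, edgeR adjusted p = 0.00116). Tk1, a thymidine kinase used in DNA synthesis, had 0 and 2.26 CPM in the IKKbCtrl mice, 1.59 and 3.11 in the IKKbWT mice, and 29.9 and 23.8 in the active IKKβ mice (log2 change 3.66 ± 0.51, edgeR adjusted p = 0.000828). That none of these genes overlapped between the groups was a condition of the naming rule. Exoc3l4, a relative of an exocyst subunit, had 1 UMI in all controls and 54 in the active IKKβ mice, a ratio of 41.3 with an exact interval of 7.10 to 1660 (log2 change 4.94 ± 0.76, edgeR adjusted p = 0.00198). H2-Q7 had 3 UMIs in the controls and 61 in the active IKKβ mice, a ratio of 15.5 with an interval of 5.07 to 77.5 (log2 change 3.78 ± 0.91, edgeR adjusted p = 0.0463). H2-Q7 belongs to a family of near-identical class I genes whose reads counting can split, so its level is uncertain, and its call was lost without any 1 of the 6 mice (3.38 to 4.55).

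**Figure D3:**
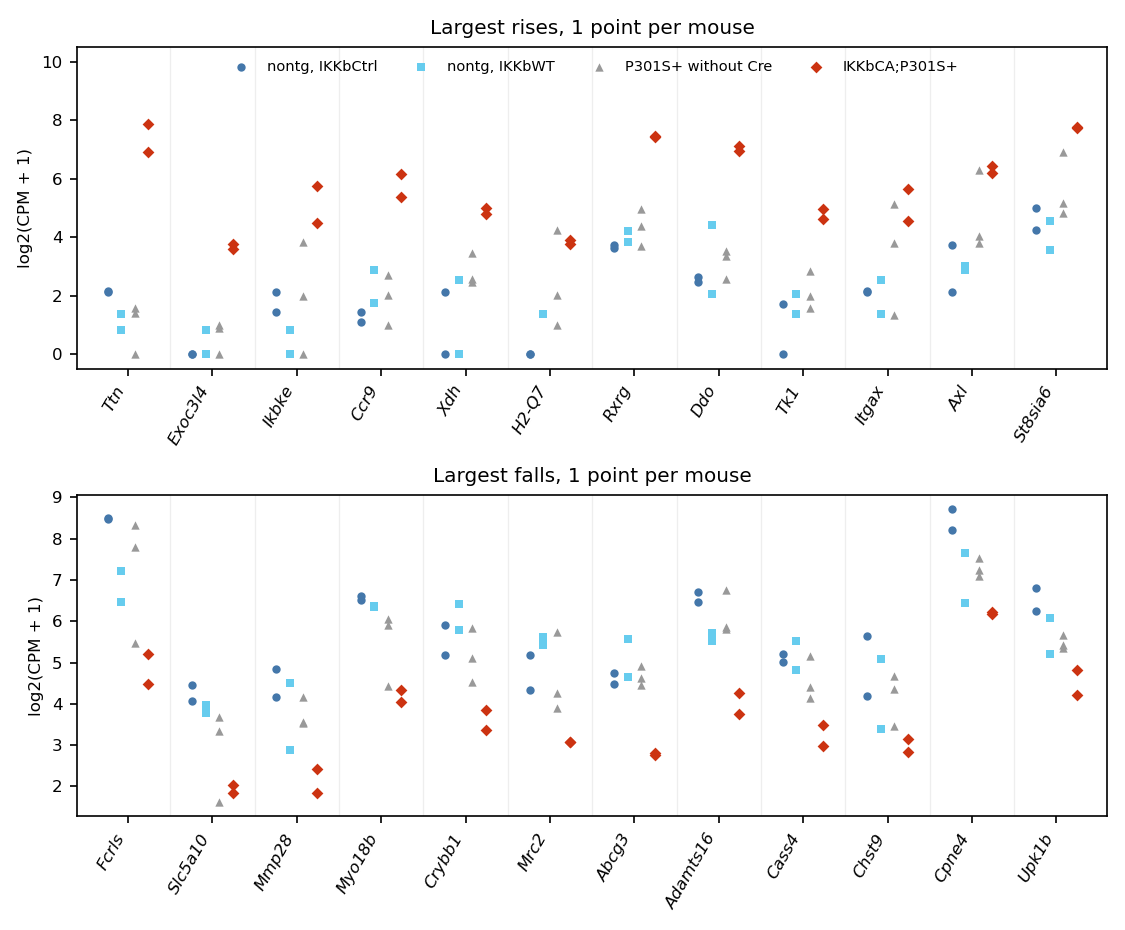
Level of the 12 genes with the largest rises (upper panel) and the 12 with the largest falls (lower panel) in microglial nuclei, as log2(CPM + 1), with 1 point per mouse in the groups IKKbCtrl, IKKbWT, P301S and active IKKβ (diamonds). Both diamonds lie beyond all 4 non-transgenic mice in every gene because the naming rule required it. P301S mouse 3 lies near the diamonds for Axl and H2-Q7 but not for Ttn or Rxrg.

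Abundant genes rose too, by smaller factors. Lrmda (ENSMUSG00000063458), a gene with leucine-rich repeats known from melanocyte biology, was the most abundant gene called higher, with 2078 and 1764 CPM in the IKKbCtrl mice, 2131 and 1652 in the IKKbWT mice, and 5999 and 6008 in the active IKKβ mice (log2 change 1.66 ± 0.19, edgeR adjusted p = 0.000129). Both active IKKβ mice were about 3 times each control. The 7 next most abundant genes called higher rose by 0.59 to 0.78 on the log2 scale and were Dst, Lhfpl2, Pvt1, Pou2f2, Fmnl2, Fnbp1 and Myo1f. Lhfpl2 and Pvt1 each lost the call under 2 alternatives (0.59 to 0.83), active IKKβ mouse 1 left out among them. Fmnl2, Fnbp1 and Myo1f each lost it under 6 (0.42 to 0.87), line as a covariate and the removal of non-transgenic mouse 1 or 2 or active IKKβ mouse 2 among them. Dst, a large linker of the cytoskeleton, had 1012 and 961 CPM in the IKKbCtrl mice, 1047 and 1047 in the IKKbWT mice, and 1734 and 1562 in the active IKKβ mice (log2 change 0.70 ± 0.12, edgeR adjusted p = 0.00468). Its call was lost without active IKKβ mouse 1 (0.63). Pou2f2, a transcription factor of B cells and macrophages, had 373 and 271 CPM in the IKKbCtrl mice, 328 and 409.8 in the IKKbWT mice, and 607 and 551 in the active IKKβ mice. It was called (log2 change 0.74 ± 0.16, edgeR adjusted p = 0.0273), but the call was lost without any 1 mouse other than non-transgenic mouse 4 (0.64 to 0.81) and with line as a covariate (0.60). Of the 41 tested members of a list of transcription factors, which does not hold Pou2f2, 2 were called higher, Rxrg and Tead1. Tead1, a Hippo pathway factor, had 17.3 and 23.7 CPM in the IKKbCtrl mice, 27.1 and 50.5 in the IKKbWT mice, and 95.7 and 131 in the active IKKβ mice (log2 change 1.82 ± 0.27, edgeR adjusted p = 0.00151). The 2 calls of the list were 4.88% of its tested members, against 1.31% of all genes called higher. Since the list was chosen with earlier results of these data known, that share tests nothing. The list had 0 calls lower and a median of 0.09. Mef2c, a factor of the homeostatic state, was at -0.55 without a call (edgeR adjusted p = 0.204), though it was called lower in 3 of 18 alternatives.

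A further set of immune genes, chosen here after their values were seen, was called higher. Cd101, an inhibitory surface receptor, had 19.1 and 11.3 CPM in the IKKbCtrl mice, 17.5 and 14.8 in the IKKbWT mice, and 103 and 102 in the active IKKβ mice (log2 change 2.75 ± 0.26, edgeR adjusted p = 2.94e-05). Apobec3, a cytidine deaminase that restricts retroviruses, had 107 and 77.9 CPM in the IKKbCtrl mice, 129 and 118 in the IKKbWT mice, and 471 and 480.0 in the active IKKβ mice (log2 change 2.14 ± 0.21, edgeR adjusted p = 2.94e-05). Aoah, an enzyme that inactivates bacterial endotoxin, had 15.6 and 21.5 CPM in the IKKbCtrl mice, 54.1 and 12.4 in the IKKbWT mice, and 251 and 268 in the active IKKβ mice (log2 change 3.43 ± 0.39, edgeR adjusted p = 0.000129). Apobec3 overlaps AC113595.1 on the same strand, so that reads of the pair may not be told apart. In all 3 the active IKKβ mice were within 10% of each other and above every control. Fgr, a Src family kinase of myeloid cells, had 13.9 and 7.91 CPM in the IKKbCtrl mice, 19.1 and 14.8 in the IKKbWT mice, and 125 and 166 in the active IKKβ mice (log2 change 3.4 ± 0.42, edgeR adjusted p = 0.000289). Slamf8, a receptor of the SLAM family, had 1.73 and 1.13 CPM in the IKKbCtrl mice, 7.96 and 5.44 in the IKKbWT mice, and 40.3 and 35.2 in the active IKKβ mice (log2 change 3.16 ± 0.40, edgeR adjusted p = 0.000412), and the inhibitory receptor Cd300lf had 1.73 and 3.39 CPM in the IKKbCtrl mice, 4.78 and 5.44 in the IKKbWT mice, and 24.7 and 41.4 in the active IKKβ mice (log2 change 2.98 ± 0.46, edgeR adjusted p = 0.00195). Kynu, an enzyme of tryptophan breakdown, had 0 and 9.03 CPM in the IKKbCtrl mice, 6.37 and 3.89 in the IKKbWT mice, and 44.6 and 56.7 in the active IKKβ mice (log2 change 3.31 ± 0.49, edgeR adjusted p = 0.0015). These 7 genes were called under every alternative run, as were ceruloplasmin, Cp, at 2.77 ± 0.36 and the interleukin-12 receptor chain Il12rb2 at 3.09 ± 0.52 (edgeR adjusted p = 0.00047 and 0.00448). Genes for signals to lymphocytes were among the calls: Cd274, which encodes PD-L1, had 10.4 and 14.7 CPM in the IKKbCtrl mice, 12.7 and 10.1 in the IKKbWT mice, and 31.6 and 34.3 in the active IKKβ mice (log2 change 1.46 ± 0.27, edgeR adjusted p = 0.00898), and Icosl, the ligand of ICOS, and Tnfsf13b, which encodes the B cell factor BAFF, were at 1.14 ± 0.21 and 1.44 ± 0.25 (edgeR adjusted p = 0.00898 and 0.00618). Casp4, an inflammatory caspase that senses endotoxin, was at 1.69 ± 0.32 (edgeR adjusted p = 0.00844). Calls were lost without active IKKβ mouse 2 for Cd274 (1.4) and Icosl (1.0), and without active IKKβ mouse 1 for Tnfsf13b (1.16) and Casp4 (1.52). Thinning to 1000 UMIs also ended the calls of Cd274 (1.3) and Icosl (1.05), and line as a covariate that of Casp4 (1.59).

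Genes of disease-associated microglia, the state described around plaques and dying neurons, were raised in part. Of 30 members tested, 5 were called higher (16.7%, against 1.31% of all genes) and 0 lower, with a median of 0.41. That median was 0.77 against the IKKbWT mice alone and ranged from 0.26 without active IKKβ mouse 2 to 1.03 without the filter on low counts. For P301S against non-transgenic mice, without active kinase, it was 0.49. The list summed to 2156 to 2556 CPM in the controls and 2692 and 3375 in the active IKKβ mice. It summed to 2582, 3337 and 4553 CPM in P301S mice 1 to 3 and 3194 and 2364 in the ikbkb-/-;P301S+ mice. The rise was therefore not particular to the active IKKβ mice. Axl, a receptor tyrosine kinase for the clearance of dying cells, had 12.1 and 3.39 CPM in the IKKbCtrl mice, 6.37 and 7.0 in the IKKbWT mice, and 72.7 and 85.3 in the active IKKβ mice (log2 change 3.51 ± 0.58, edgeR adjusted p = 0.00358). Itgax, which encodes CD11c, had 3.47 and 3.39 CPM in the IKKbCtrl mice, 4.78 and 1.56 in the IKKbWT mice, and 22.5 and 49.3 in the active IKKβ mice (log2 change 3.54 ± 0.72, edgeR adjusted p = 0.0168). Cybb, the catalytic subunit of the phagocyte NADPH oxidase, had 3.47 and 7.91 CPM in the IKKbCtrl mice, 3.18 and 0.778 in the IKKbWT mice, and 16.5 and 49.3 in the active IKKβ mice (log2 change 3.16 ± 0.68, edgeR adjusted p = 0.024). Neither group overlapped the other in these 3 genes, as in all called genes, although Cybb and Itgax in active IKKβ mouse 2 were more than 2 times those in mouse 1. Lgals3bp, a secreted binding partner of galectins, and B2m, the light chain of class I molecules, were the other 2 called, at 2.52 and 1.17 (edgeR adjusted p = 0.00695 and 0.043). Apoe, the lipid carrier that leads the usual signature of that state, had 127 and 232 CPM in the IKKbCtrl mice, 196 and 62.2 in the IKKbWT mice, and 114 and 311 in the active IKKβ mice, and its groups overlapped (log2 change 0.49 ± 0.45, edgeR adjusted p = 0.782). The calls of Itgax, Cybb and Lgals3bp were lost without active IKKβ mouse 2, at 2.87, 2.16 and 2.41. Those of Itgax and Cybb were also lost without non-transgenic mouse 1 (3.6 and 3.15) or 4 (3.20 and 2.63), that of Itgax without mouse 2 (3.61) and that of Cybb without mouse 3 (3.12). DESeq2 (3.49 and 3.12) and line as a covariate (3.01 and 3.07) ended both calls as well.

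Class I antigen presentation was raised in part. Of 20 listed genes tested, 3 were called higher (15%), against 1.31% of all genes, with a median of 0.49. Both active IKKβ mice lay above all controls in 10 of the 20, against 9.54% of all genes. The called genes were Nlrc5, the transactivator of class I genes, with 5.2 and 7.91 CPM in the IKKbCtrl mice, 20.7 and 2.33 in the IKKbWT mice, and 45.5 and 66.4 in the active IKKβ mice (log2 change 2.81 ± 0.60, edgeR adjusted p = 0.0232), B2m with 55.5 and 55.3 CPM in the IKKbCtrl mice, 86 and 42 in the IKKbWT mice, and 145 and 116 in the active IKKβ mice (log2 change 1.17 ± 0.28, edgeR adjusted p = 0.043), and H2-Q7. H2-K1, a classical class I heavy chain, had 36.4 and 33.9 CPM in the IKKbCtrl mice, 47.8 and 10.1 in the IKKbWT mice, and 109 and 99 in the active IKKβ mice and narrowly missed the threshold (log2 change 1.82 ± 0.45, edgeR adjusted p = 0.0521). Against the IKKbWT mice alone it passed, at 2.1 (edgeR adjusted p = 0.0226). H2-D1 had 29.5 and 29.4 CPM in the IKKbCtrl mice, 52.5 and 22.6 in the IKKbWT mice, and 92.2 and 86.2 in the active IKKβ mice and did not pass (log2 change 1.48 ± 0.44, edgeR adjusted p = 0.12). H2-K1 passed in 9 of 18 alternatives and H2-D1 in 4, the fit of the 6 libraries alone among them (1.81 and 1.47). The calls of Nlrc5 and B2m were lost without non-transgenic mouse 1, 2 or 4 or active IKKβ mouse 2, at 2.33 to 2.81 and 1.0 to 1.32, and that of B2m also without active IKKβ mouse 1 (1.01). Line as a covariate ended both (2.22 and 0.90), and DESeq2 that of Nlrc5 (2.67).

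Interferon-response genes gave no calls in the fit over all mice. Of 22 tested, 0 were called by edgeR, and the lowest adjusted p was 0.0792, for Rnf213, a large ubiquitin ligase with 64.1 and 72.3 CPM in the IKKbCtrl mice, 98.7 and 79.3 in the IKKbWT mice, and 139.9 and 141 in the active IKKβ mice (log2 fold change 0.84 ± 0.22). It passed in 5 of 18 alternatives, with the 6 libraries alone at 0.84. Even so, 21 of the 22 had a positive log2 fold change and the median was 0.50. In 8 both active IKKβ mice lay above all controls, against 9.54% of all genes. At an unadjusted p under 0.05 there were 5, against 1177 of all 10714 tested genes. Most of the other listed genes were too low to test.

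**Figure D4:**
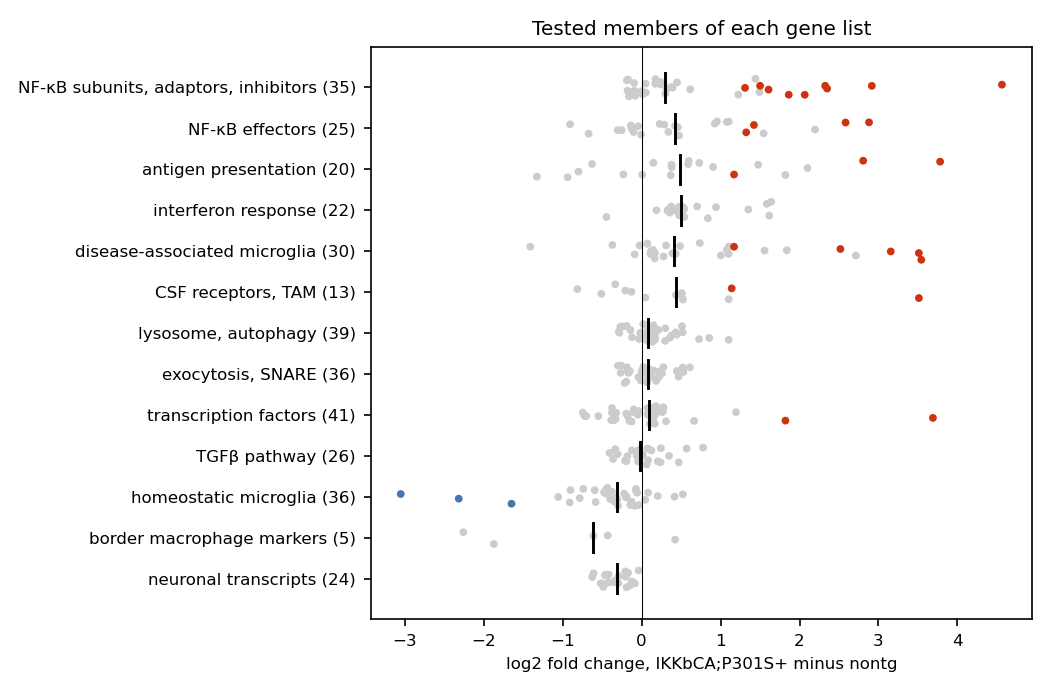
Log2 fold change of active IKKβ against non-transgenic (nontg) microglia for the tested members of 13 gene lists, with the number tested in brackets after each name. Each point is a gene, red where called higher, blue where called lower and grey where not called, and the black bar is the list's median. The NF-κB subunit and feedback list has 9 red points and the disease-associated list 5, and the homeostatic list has 3 blue ones.

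Homeostatic microglial genes leaned lower, with few calls. Of 36 tested, 3 were called lower (8.33%, against 0.392% of all genes) and 0 higher, the median was -0.31 and 31 were negative. In 14 both active IKKβ mice lay below all controls and in 2 above, against 7.9 and 9.54% of all genes. Crybb1, a crystallin used as a marker of mature microglia, had 58.9 and 35 CPM in the IKKbCtrl mice, 84.4 and 54.4 in the IKKbWT mice, and 13.4 and 9.24 in the active IKKβ mice (log2 change -2.32 ± 0.36, edgeR adjusted p = 0.00248). Fcrls, an Fc receptor-like gene specific to microglia, had 360.5 and 355 CPM in the IKKbCtrl mice, 87.5 and 149 in the IKKbWT mice, and 21.2 and 35.6 in the active IKKβ mice (log2 change -3.05 ± 0.68, edgeR adjusted p = 0.0283). Upk1b, a tetraspanin family gene, had 74.5 and 111 CPM in the IKKbCtrl mice, 66.9 and 35.8 in the IKKbWT mice, and 27.3 and 17.6 in the active IKKβ mice (log2 change -1.65 ± 0.33, edgeR adjusted p = 0.0147). Fcrls was lower in both IKKbWT mice than in both IKKbCtrl mice, with a difference of -1.55 on the log2 scale, and it passed against the IKKbWT mice alone, at -2.1 (edgeR adjusted p = 0.00174). Crybb1 was called under all 18 alternatives, Upk1b was lost without active IKKβ mouse 2 (-1.37) and with line as a covariate (-1.31), and Fcrls was lost without non-transgenic mouse 1 (-2.80) or 2 (-2.77) or without either active IKKβ mouse (-2.72 and -3.47). Other members did not pass. P2ry12, the ADP receptor of microglial processes, was at -0.19 ± 0.21 and Csf3r, a cytokine receptor, at 0.52 ± 0.18 (edgeR adjusted p = 0.823 and 0.203).

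Other falls were found in genes with varied roles. Abcg3, a transporter gene, had 26 and 21.5 CPM in the IKKbCtrl mice, 46.2 and 24.1 in the IKKbWT mice, and 6.06 and 5.72 in the active IKKβ mice (log2 change -2.26 ± 0.34, edgeR adjusted p = 0.00151). Cass4, a scaffold of focal adhesions, had 31.2 and 36.1 CPM in the IKKbCtrl mice, 27.1 and 45.1 in the IKKbWT mice, and 6.93 and 10.1 in the active IKKβ mice (log2 change -2.07 ± 0.32, edgeR adjusted p = 0.00195). Myo18b, a myosin gene, had 97 and 90.3 CPM in the IKKbCtrl mice, 79.6 and 81.7 in the IKKbWT mice, and 19.1 and 15.4 in the active IKKβ mice (log2 change -2.33 ± 0.39, edgeR adjusted p = 0.00464). The groups did not overlap in these 3 genes, which the naming rule required. The call of Myo18b was lost without active IKKβ mouse 2 (-2.18), while Abcg3 and Cass4 were called under all 18 alternatives, as was Adamts16, a secreted metalloprotease at -2.2 ± 0.35 (edgeR adjusted p = 0.00319). Mmp28, Slc5a10, Mrc2 and Chst9 completed the 12 largest falls, between -2.44 and -2.02, with the copine gene Cpne4. Chst9 kept its call in 5 of 17 alternatives, and the calls of Mmp28, Slc5a10 and Mrc2 were lost without any 1 of several mice, non-transgenic mouse 4 and both active IKKβ mice among them (-2.78 to -2.04). Cpne4 had 418 and 294 CPM in the IKKbCtrl mice, 86 and 201 in the IKKbWT mice, and 71.4 and 73.5 in the active IKKβ mice (log2 change -1.77 ± 0.38, edgeR adjusted p = 0.021). It differed by -1.24 between IKKbWT and IKKbCtrl mice and did not pass against IKKbWT mice, at -1.05 (edgeR adjusted p = 0.11). Its call was lost without non-transgenic mouse 2 (-1.68) or either active IKKβ mouse (-1.75 and -1.79) and with line as a covariate (-1.26). The most abundant gene called lower was Csmd3, a large transmembrane gene also high in neurons, with 3506 and 3899.7 CPM in the IKKbCtrl mice, 3360.1 and 2854 in the IKKbWT mice, and 1659.6 and 1487 in the active IKKβ mice (edgeR adjusted p = 0.0094, log2 fold change -1.11 ± 0.21). That call was lost without either active IKKβ mouse (-1.19 and -1.04).

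RNA of neurons was present in these sums, at a lower level in the active IKKβ mice. All 24 neuronal transcripts of a list had a negative log2 fold change (median -0.31), 0 were called and 9 had an unadjusted p under 0.05. The lowest adjusted p by edgeR was 0.0766. In 9 both active IKKβ mice lay below all controls, against 7.9% of all genes. Their summed level was 39172 to 47040 CPM in the controls and 32718 and 36296 CPM in the active IKKβ mice. Of the 42 genes called lower, 12 had a higher level in Slc17a7-positive nuclei than in microglia of the non-transgenic mice, named here after their values were seen: Cpne4, Adcy8, Ppm1l, Chst9, Prkg1, Gria4, Ppm1e, Kcnb2, Col6a1, 5730522E02Rik, Tenm2 and Atp2b4. Of the 140 called higher 17 did. The share over all tested genes was not counted, so neither count can be read as more or less than usual. With nuclei that held other cell types' markers removed, the calls of Cpne4, Gria4 and Kcnb2 were lost, at -0.72, -0.50 and -0.45. That of Chst9 was lost too, at -2.20, a difference no smaller than before. In that fit the 24 neuronal transcripts were lower still, with a median of -0.48 and 7 called lower. There 231 of 9314 tested genes were called higher (2.48%) and 170 lower (1.83%), or 4.31% in all. Other settings ended calls as well, since Cpne4, Gria4 and Kcnb2 kept theirs in 11, 9 and 11 of 18 alternatives. The part of neuronal RNA in the other falls was not tested.

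Of the markers of other immune cells that could be tested, 0 were called by edgeR with the filter on low counts, and 2 border macrophage markers had an unadjusted p under 0.05. Border macrophage markers summed to 192 to 626 CPM in the controls and 184 and 283 CPM in the active IKKβ mice, with 0 of 5 tested members called and a median of -0.61. Among them F13a1 was at -1.87 ± 0.81, Stab1 at -0.61 ± 0.27 and Mrc1 at -0.43 ± 0.45 (edgeR adjusted p = 0.387, 0.413 and 0.81). Without that filter F13a1 (-1.84) and Stab1 (-0.58) were called lower (edgeR adjusted p = 3.39e-13 and 0.0362), and over the alternatives F13a1 ranged from -5.97 to -0.90. Monocyte and neutrophil markers summed to 30, 52, 45 and 42 UMIs in non-transgenic mice 1 to 4 (32.7 to 71.6 CPM) and to 58 and 132 UMIs in the active IKKβ mice (25.1 and 58.1 CPM), with 9 to 13 of 16 members at 0 in each mouse. Lymphocyte markers summed to 5, 17, 49 and 14 UMIs (8.66 to 78.0 CPM) and to 40 and 121 UMIs (17.3 and 53.2 CPM), with 5 of 18 members at 0 in active IKKβ mouse 2 and 12 to 14 in the other mice. On the CPM scale the active IKKβ mice lay within or below the range of the controls in both lists. Among the members S100a8, S100a9, Ly6g, Trac, Nkg7, Gzma and Gzmb, picked here because they were at that level, had 0 UMIs in all 6 mice. Other members of both lists were detected in every mouse, so this pick does not show that such cells were absent. The part of such cells in the other results was not tested. Of the astrocyte, oligodendrocyte, oligodendrocyte precursor and vascular lists 8, 11, 6 and 5 genes were tested, 0 were called in each, and the medians were -0.23, 0.07, -0.31 and 0.98. Each of these medians changed sign over the alternatives, the astrocyte one from -1.14 to 0.32 and the vascular one from -0.97 to 2.08.

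Several processes often studied in microglia gave few calls or none, with receptors for CSF and for dying cells an exception by share. These counts stand beside 1.7% of all 10714 tested genes called and 1177 of them at an unadjusted p under 0.05. Lysosome and autophagy genes had 39 tested members, 0 called by edgeR, 7 at an unadjusted p under 0.05 and a median of 0.08, while Ctsz, a lysosomal protease gene chosen after its values were seen, was called higher against the IKKbWT mice alone, at 1.44 (edgeR adjusted p = 0.0068). Exocytosis and SNARE genes had 36 tested members, 0 called, 3 at an unadjusted p under 0.05 and a median of 0.08. The TGFβ pathway, which maintains the homeostatic state, had 26, of which 0 were called and 2 had an unadjusted p under 0.05, with a median of -0.02. Complement genes had 11 with 1 called, Itgax, and a median of 0.04, and C1qa and C1qb were at 0.38 ± 0.24 and 0.43 ± 0.18 without a call (edgeR adjusted p = 0.625 and 0.346). Sterol and lipid genes had 31 tested members and a median of 0.05, with Soat1, which esterifies cholesterol, higher at 0.86 ± 0.20 and Lrp1, a receptor that takes up tau and lipoproteins, lower at -0.77 ± 0.16 (edgeR adjusted p = 0.0347 and 0.0184). The call of Soat1 was lost without non-transgenic mouse 1, 2 or 4 or either active IKKβ mouse (0.80 to 0.92) and that of Lrp1 without non-transgenic mouse 1 (-0.67) or either active IKKβ mouse (-0.76 and -0.77). Line as a covariate ended the calls of Soat1 (0.65) and Lrp1 (-0.66). Receptors for CSF and for dying cells had 13 tested members, 6 at an unadjusted p under 0.05 and a median of 0.44. Of the 13, 2 were called higher (15.4%), Axl and Csf2rb, against 1.31% of all genes called higher. Csf2rb, the shared β chain for GM-CSF, was at 1.14 ± 0.21 (edgeR adjusted p = 0.00695), a call lost without active IKKβ mouse 1 (1.02). Surface receptors had 31 with 1 called, Ccr9, and a median of -0.06. In the cell cycle list 5 of 36 genes could be tested and 0 were called, so Tk1 was not accompanied by calls of other cycle genes at this depth.

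The rises were spread over many nuclei. Each nucleus was thinned to 1000 UMIs so that depth could not set the count, which left out 6 of the 1261 control nuclei and 2 of the 1420 active IKKβ nuclei. At least 1 UMI of the 12 most raised genes was then found in 6.75, 5.05, 5.28 and 4.73% of nuclei in non-transgenic mice 1 to 4 and in 59.0 and 61.6% in the active IKKβ mice. At least 3 different genes of the 12 were detected in 0% of control nuclei and in 5.31 and 9.94% of active IKKβ nuclei. The 140 genes called higher summed to 13 to 14 UMIs in the median control nucleus and to 33 and 34 in the active IKKβ mice, where the 5th percentile was 13 and 12 against a 95th percentile of 22 to 24 in the controls. The 42 genes called lower gave medians of 12 to 14 and of 7 and 7. Since the genes were chosen on these sums, these counts describe their spread and test nothing. By gene, Ttn was seen in 8.09 to 16.9% of active IKKβ nuclei and in 0 to 0.397% of control nuclei, Rxrg in 16.6 to 17.0% against 0.397 to 1.41%, and Tank in 19.7 to 24.5% against 3.57 to 8.52%. Before thinning these shares were 15.8 to 27.2% against 0.249 to 0.946% for Ttn, 36.7 to 40.2% against 1.89 to 3.48% for Rxrg, and 44.6 to 47.9% against 9.88 to 15.9% for Tank. In oligodendrocyte nuclei, with median depths of 2172 to 2961 UMIs, the thinned share was 0 to 0.236% for Ttn, 0 to 0.982% for Rxrg and 6.84 to 8.15% for Tank. The Tank share of control microglia therefore reached little above that of oligodendrocytes, while the active IKKβ mice lay above both.

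**Figure D5:**
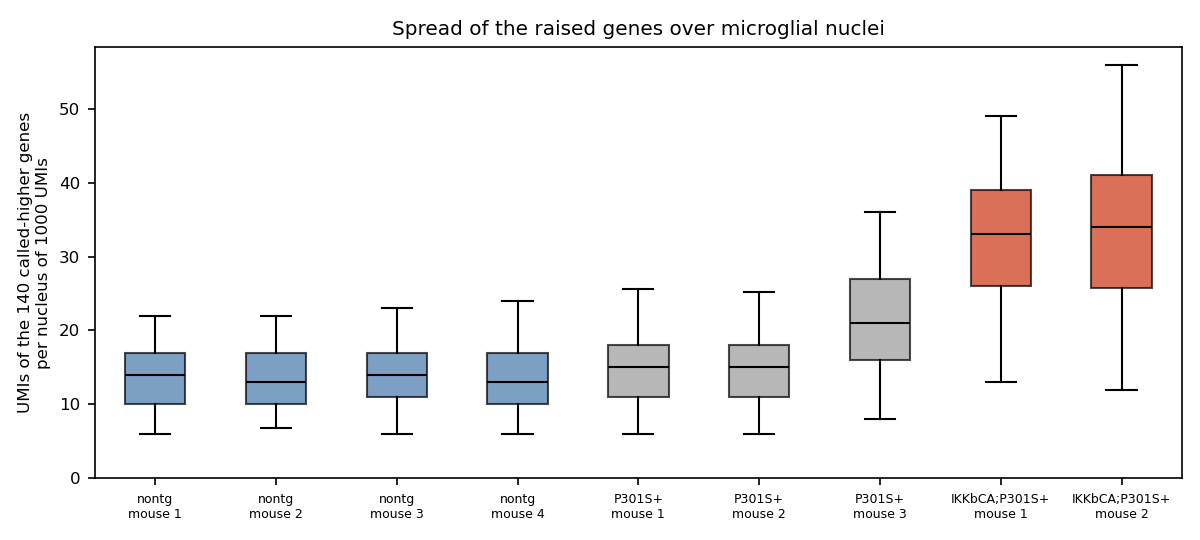
UMIs of the 140 called-higher genes in each microglial nucleus thinned to 1000 UMIs, by mouse. Boxes span the 25th to the 75th percentile with the median as a line, and whiskers run from the 5th to the 95th percentile. Medians are 13 to 14 in the 4 non-transgenic (nontg) mice and 33 and 34 in the active IKKβ (IKKbCA;P301S+) mice, while the P301S mice, shown for reference, have 15, 15 and 21.

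The controls titled IKKbWT share the line of the active IKKβ mice, and were therefore read apart. Against these 2 mice alone 135 genes were called (1.26%), 107 higher and 28 lower, and against the 2 IKKbCtrl mice 214 were called (2%). Of the 182 genes called against all controls, 117 were also called against the IKKbWT mice, 84 against each kind, and all 182 kept their direction against the IKKbWT mice. Between the 2 kinds of control edgeR called 1 gene (0.00933%), 693 had an unadjusted p under 0.05, and DESeq2 called 10. The leading genes passed against the IKKbWT mice alone: Ttn was at 7.26 against IKKbWT mice, Rxrg at 3.55, Tank at 1.91, Tnip1 at 2.15 and Lrmda at 1.67 (edgeR adjusted p = 2.21e-05, 9.78e-06, 0.000145, 0.000409 and 8.39e-05). Sys1, AC154646.1, Nfkbia and Cpne4 were the genes with a call against all controls, none against the IKKbWT mice and the largest difference between the kinds, at 2.04, 1.52, 1.9 and -1.24 for IKKbWT minus IKKbCtrl. The call of Sys1, which overlaps Gm20458 on the same strand, was lost without active IKKβ mouse 2 (2.74). AC154646.1 kept its call in 9 of 16 alternatives and lost it with line as a covariate (2.43), by DESeq2 (3.26), and on leaving out non-transgenic mouse 1, 2 or 4 or either active IKKβ mouse (2.90 to 3.42). With line as a covariate over all 11 mice 107 genes were called, 102 of them among the 182, and 49 of 78 called genes followed through the alternatives, most of them named here, stayed called. The comparison with 2 controls depended on single mice. Leaving out an IKKbWT or active IKKβ mouse there left a group of 1 mouse, with the spread taken from the other groups. IKKbWT and active IKKβ mice with the same title number had the same age, and in fits of those 4 mice alone 41 genes were called without the number as a block and 202 with it.

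The P301S mice, which carry the tau transgene without active kinase, are set beside the active IKKβ mice here. They lack Cre as well as the active kinase, so these values do not single out the kinase. They enter the same fit, and both contrasts share the non-transgenic or active IKKβ mice, so the values are given side by side only. P301S against non-transgenic mice gave 0 calls by edgeR (0%), 531 genes at an unadjusted p under 0.05 and 1 call by DESeq2. Active IKKβ against P301S mice gave 57 calls (0.532%), 48 higher and 9 lower. In P301S mice 1 to 3 Ttn stood at 0, 1.99 and 1.67 CPM, Rxrg at 19.8, 11.9 and 30.1, Ccr9 at 3.05, 0.993 and 5.44 and Tank at 83.9, 90.4 and 107. None of these reached the active IKKβ mice. Axl stood at 15.3, 12.9 and 77, St8sia6 at 27.5, 34.8 and 119.6, Itgax at 1.53, 12.9 and 34.3 and H2-K1 at 25.9, 24.8 and 88.2. P301S mouse 3, which is titled IKKbWT, was above P301S mice 1 and 2 in these 4 genes and reached the active IKKβ range for Axl and Itgax. Leaving it out of the fit changed the count of calls between active IKKβ and non-transgenic mice from 182 to 257.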

How the data were processed

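Nuclei of frozen cortex were sorted by DAPI and sequenced with 10x Chromium 3′ v3 chemistry, pre-mRNA included. Per the submitters' processing notes Cell Ranger 3.1.0 and Seurat 3.0 were used, with the mm10 build. The deposited values are raw whole-number UMI counts per gene and barcode, made by the authors with no normalization. The 11 libraries are 11 mice in 4 genotypes, placed by their labels. Microglial nuclei were summed per mouse and tested with edgeR 4.0.16 (filterByExpr, TMM, quasi-likelihood, Benjamini-Hochberg) in R 4.3.3 over all 11 mice. A second fit split genotypes by title for the 2 control kinds. Standard errors are the absolute log2 fold change over the root of F. The residual degrees of freedom were 7 and 5 and the biological coefficient of variation 14.8%. P-values measure the spread between mice. Exact permutation tests were two-sided. Counting intervals are 95% exact and cover counting error only.

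The genes named were taken from the 12 largest rises and 12 largest falls among calls with proper symbols and no overlap, the 8 most abundant calls in each direction, up to 8 called and 3 abundant uncalled members of each list, 4 genes that differ by control kind, and the label checks. The members and lists were chosen with earlier results of these data known. Genes outside the rule are said to have been chosen after their values were seen. Of 31053 genes 30934 matched GENCODE M21 by identifier. Alternatives used DESeq2 1.42.0, other filters and marker limits, covariates, a replicate block, thinning and leaving out each mouse. Without 1 active IKKβ mouse that group holds 1 mouse, and the spread in the fit comes from the other groups only. Python 3.11.15 and SciPy 1.17.1 did the rest.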

Additional observations from a re-analysis of the deposited data

Results flagged for a closer look

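Among 98 values over the 4 non-transgenic mice, 4 had 1 mouse standing apart from the other 3 by Dixon's test, where chance gives about 1 in 20. Ddo was at 20.2 CPM in non-transgenic mouse 4, against 5.20, 4.52 and 3.18 CPM in the others, still far below the active IKKβ mice. Exoc3l4 was at 0.778 CPM in non-transgenic mouse 4, which is 1 UMI, and 0 in the others. Il12rb2 was at 9.55 CPM in non-transgenic mouse 3, against 1.73, 2.26 and 0.778 CPM. Lhfpl2 was at 403 CPM in non-transgenic mouse 3, against 329, 329 and 326 CPM.

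Between the 2 kinds of control edgeR called 1 gene and DESeq2 10. The gene called by edgeR, Gm16867, was at 46.8 and 67.8 CPM in the IKKbCtrl mice and at 0 in both IKKbWT mice, and also at 0 in both active IKKβ mice (log2 fold change -9.29 for IKKbWT minus IKKbCtrl, edgeR adjusted p = 0.0189). This fitted value depends on the prior count, since 1 side is at 0. Gm16867 was not at 0 in every mouse titled IKKbWT, since P301S mouse 3, which has that title, had 30.1 CPM. P301S mice 1 and 2 had 88.5 and 38.7 CPM.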

How the results depend on the processing

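The count of 182 genes was 107 with line as a covariate, 491 without the filter on low counts and 401 (231 higher and 170 lower) when nuclei with other cell types' markers were removed, and 79 to 172 when 1 mouse was left out, lowest without active IKKβ mouse 2. In the alternatives run for this count, every tested call kept its direction. DESeq2 called 189, of which 66.7% were higher against 76.9%. Thinning gave 66.5% and the removal of other types 57.6% higher. The count of 135 against the IKKbWT mice was 86 by DESeq2, 41 with only those 4 libraries and 30 to 152 with 1 mouse left out. Removal of other types, an alternative chosen after seeing the data, gave 452, of which 219 were higher and 233 lower, so most calls were no longer upward. It gave 25 between the 2 kinds of control in place of 1, where DESeq2 gave 10. Leaving out P301S mouse 3, also chosen after seeing the data, gave 257. For the 78 called genes followed through the alternatives, 218 of 1389 values lost the call and 0 reversed. Of the uncalled genes followed, 9 passed in at least 1 alternative, H2-K1 in 9 of 18, Nfkb1 in 7, Rnf213 in 5 and H2-D1 in 4. Apoe ranged from -0.40 without active IKKβ mouse 2 to 1.04 without mouse 1, and P2ry12 was 0.11 with line as a covariate. List medians kept their sign for these lists over the alternatives but moved, from 0.26 to 1.03 for disease-associated genes, 0.34 to 0.91 for antigen presentation, 0.31 to 0.69 for interferon genes, 0.26 to 0.54 for NF-κB effectors, 0.23 to 0.45 for NF-κB subunits and feedback, 0.21 to 0.46 for CSF and dying-cell receptors and -0.40 to -0.17 for homeostatic genes. Other list medians changed sign, from -0.97 to 2.08 for vascular, -1.14 to 0.32 for astrocyte, -0.13 to 0.34 for oligodendrocyte and -0.71 to 0.009 for oligodendrocyte precursor genes. Those of the complement, transcription factor, TGFβ, surface receptor and sterol lists, all near 0, changed sign too. The 3.19 percentage points in microglial share ranged from 2.67 to 3.72 with 1 mouse left out.

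Title numbers are shared by some mice but no source says that they mark a litter or day. IKKbWT and active IKKβ mice of the same number had the same age, which was not so for the IKKbCtrl mice, and deviations of same-numbered mice correlated at 0.163, 0.0606 and 0.026. With the replicate number as a block 195 genes were called, 173 of them among the 182. Against the IKKbWT mice, in a fit of those 4 libraries only, 202 were called with the block and 41 without it.

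With 2 active IKKβ mice and few UMIs per gene in the control sums, genes near the threshold moved across it, and 25 of 60 NF-κB effector genes and 22 of 45 interferon genes could be tested.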

Other observations

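Removing nuclei with more than 1 UMI over 12 genes of other cell types added members to several lists. In that fit 401 of 9314 genes were called (4.31%), 231 higher (2.48%) and 170 lower (1.83%), against 182 of 10714 (1.7%) before, and list counts are to be read against these shares. The NF-κB subunit and feedback list then had 12 calls, with Nfkb1 (log2 fold change 0.68) and Nfkbie (1.69) and Map3k8 as additions, and the effector list 6, with Cd80 and Cd86, both ligands that costimulate T cells. Antigen presentation had 6 calls, among them H2-K1 (1.80), H2-Q4 (2.15) and H2-D1 (1.60). The interferon list had 3, which were Parp14 (0.87), Rnf213 (0.86) and Sp100 (1.45), where 0 were called before. The homeostatic list had 4 lower. Ctsz (1.09) and Ctsh (0.89) were called of 39 lysosome genes, Stx7 (0.67) of 35 for exocytosis and Smurf1 (0.59) of 26 of the TGFβ pathway, counts near the share of all genes for the last 2, and the list of disease-associated microglial genes had Ctsz, Timp2 and Myo1e as additions. These additions were named after their values were seen, and 7 neuronal transcripts were called lower in the same fit, as were the astrocyte genes Slc1a2 (-1.14) and Gpc5 (-1.21), Gas6 (-1.07), a ligand of Axl, the integrin gene Itga9 (-0.77) and Mef2c (-0.60).

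Gm37267, a gene model outside the naming rule and chosen after its values were seen, had 24 and 29 UMIs in active IKKβ mice 1 and 2 and 0 in all 4 controls. The exact 95% lower limit of the ratio was 10.6, for counting error alone.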
